A study of Mus with 4 samples.

Results

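Glypicans and syndecans are the cell-surface heparan sulphate proteoglycans, core proteins that carry long sulphated sugar chains. Their 10 genes (*Gpc1* to *Gpc6* and *Sdc1* to *Sdc4*) were followed in nephron progenitor cells (NPCs) of the embryonic mouse kidney, with and without a deletion of the prorenin receptor (PRR). The members were all probes of the array that are not controls and whose accession maps to one of these gene symbols, which gave 14 of 41174 probes and 10 of 16355 genes with a probe. *Gpc6*, *Sdc2*, *Sdc3* and *Sdc4* have 2 probes each, which are called the brighter and the dimmer probe by their mean signal, and the other 6 genes have 1 probe each. No measured value entered the choice of probes for these genes. The gene family itself was chosen with earlier results of these data known, and the study had singled out *Gpc2* from these arrays.

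Glypicans are tied to the outer face of the membrane by a lipid (GPI) anchor, whereas syndecans span the membrane and have a short cytoplasmic tail that binds adaptor proteins. The heparan sulphate chains of both families hold FGF, Wnt, BMP, Hedgehog and GDNF ligands near the cell and present them to their receptors. The pattern of sulphate groups along a chain, set in the Golgi and trimmed at the cell surface, influences which ligands it binds. In the kidney, loss of *Gpc3* leads to overgrown and dysplastic kidneys, and mice without the sulphotransferase *Hs2st1* form no kidneys.

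Cells positive for *Six2* were sorted by GFP from E15.5 kidneys. The mutant cells (*Mut*) came from Six2 CreEGFP+ embryos with PRR flox/flox alleles and the control cells (*WT*) from Six2 CreEGFP+ embryos with PRR+/+ alleles. Both groups thus carry the transgene, which drives Cre and marks the cells for sorting under the *Six2* promoter, and each RNA sample is a pool of kidneys, not 1 animal. On arrays 1, 2 and 3 a *Mut* pool in the green dye Cy3 was compared with the equally numbered *WT* pool in the red dye Cy5, and a further array compared *WT* pool 2 in Cy3 with *WT* pool 1 in Cy5 (*WT* vs *WT*, here called the control array). The dyes were not exchanged on arrays 1 to 3, so genotype and dye cannot be told apart there, and the control array is the only measure of a difference without a difference of genotype. P values measure the spread between pools and arrays.

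Across 41166 probes with a value on arrays 1 to 3, 827 (2.01%) were called differentially expressed, which needed both a Benjamini-Hochberg adjusted P under 0.05 (limma) and more than 1.5-fold. Of these, 599 (1.46%) were lower and 228 (0.554%) higher in *Mut*. Without the fold minimum, 29.6% passed the adjusted P. The probe of *Atp6ap2*, the gene of PRR, was at a mean log2 *Mut*/*WT* of -0.17 (limma, SE 0.055, adjusted P = 0.0353) on arrays 1 to 3 and a log2 Cy3/Cy5 of -0.19 on the control array, so it did not tell the genotypes apart. The paper, in contrast, reported a clear decrease of PRR mRNA in sorted *Mut* cells by qRT-PCR. All 9 nephron progenitor markers, *Six2* and *Cited1* among them, were well above background in Cy5 on every array. Their summed normalized signal lay between 26080 and 27811 in the *WT* channels and between 23075 and 24824 in the *Mut* channels of arrays 1 to 3. All such sums are on the linear scale, so the brightest genes weigh most. The brightest progenitor marker, *Crym*, was at a mean log2 *Mut*/*WT* of -0.28, with -0.26 on the control array. With each marker gene given by its brightest probe, 5 of the 9 were lower and 1 higher in *Mut* at an adjusted P under 0.05 (limma). The dimmer probes of *Osr1* (-0.66) and *Meox1* (-0.75) were called lower. On the control array the sum was 26425 in *WT* pool 1 and 24142 in *WT* pool 2, the latter within the *Mut* range. The summed signal of 8 stroma markers was 6528 to 6875 in *WT* and 7913 to 9369 in *Mut*, and that of 5 erythroid markers 1596 to 1760 in *WT* and 3363 to 3538 in *Mut*. Of the stroma markers 6 were higher and 2 lower at an adjusted P under 0.05, with *Col1a1* at 0.89 but *Foxd1* at -0.30 and *Lum* at -0.42 on the log2 scale. The further *Col1a1* probes were at 0.33 and -0.02, and its brightest probe had a control array ratio of 0.43. Of the erythroid markers 3 were higher, with *Hba-a1* at 1.17, and *Hbb-bh1* and *Epb42* were not well above background on arrays 1 to 3. The erythroid sum is mostly that of *Hba-a1*, whose mean log2 level was 11.01, against 6.83 for *Alas2*. On the control array, *WT* pools 1 and 2 had 7057 and 7959 for stroma and 3917 and 3409 for erythroid markers. The part of these other cells in the results that follow was not tested.

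Of the 14 glypican and syndecan probes, 1 was differentially expressed, the probe of *Gpc2*, which was lower in *Mut*. This is 7.14% of the members, beside 2.01% of all probes. *Gpc2* was known from these arrays when the family was chosen, so these shares are a description only. A further 6 probes passed the adjusted P but fell short of 1.5-fold, so that 7 of 14 (50%) passed the adjusted P alone, 6 of them lower and 1 higher, beside 29.6% of all probes. The median log2 *Mut*/*WT* of the members was -0.05, against -0.00096 over all probes. The 7 members that did not pass had values between -0.06 and 0.05, with 95% confidence intervals that lay within -0.18 and 0.17. In this fit no uncalled member had an interval that reached 1.5-fold, since all 13 lay within -0.45 and 0.34 on the log2 scale. They include *Gpc5*, which was not well above background, so its interval bounds no fold. Other settings described later were wider. *Sdc1* was at -0.84 with median centring, and the dimmer *Sdc3* probe at -0.60 with the deposited log ratios. The control array ratios of these probes in the same settings were -0.68 and -0.37. With the dye term the brighter *Gpc6* probe was at -0.47 (SE 0.134). None of these was called.

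**Figure D1:**
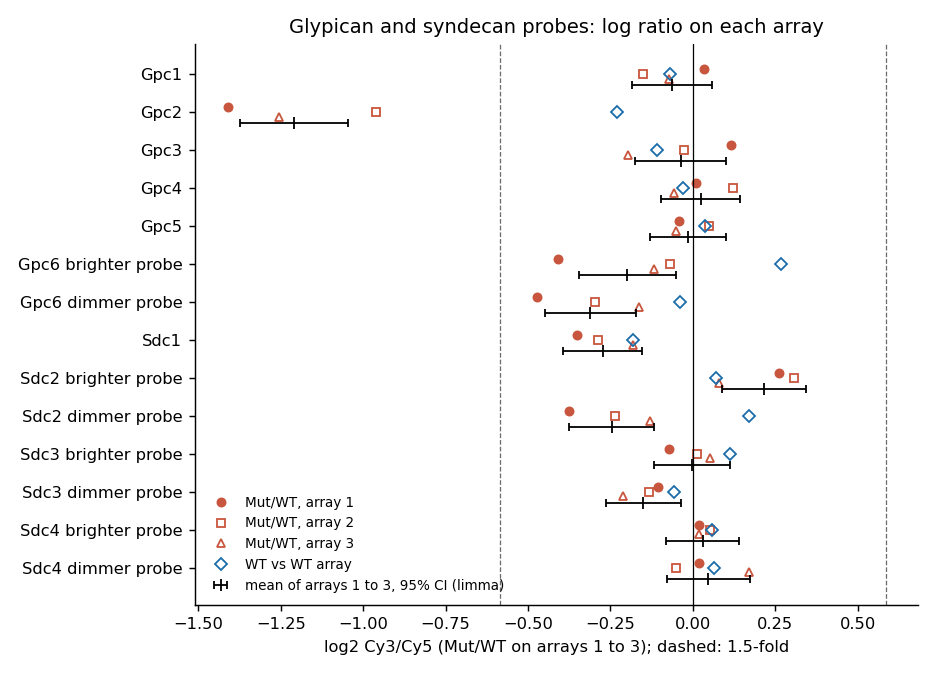
Log2 Cy3/Cy5 (horizontal axis) of each of the 14 probes (vertical axis) on arrays 1 to 3, where it is log2 *Mut*/*WT*, and on the control array (*WT* vs *WT*), with the limma mean and 95% confidence interval of arrays 1 to 3. *Gpc2* lies between -1.41 and -0.96 on arrays 1 to 3, and the other 13 probes have means between -0.31 and 0.22, inside the dashed lines at 1.5-fold.

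*Gpc2* encodes a glypican best known from developing neurons. Its median spot signal in the *WT* channel was 312, 268 and 314 on arrays 1, 2 and 3, against a local background of 45, 53 and 55. In the *Mut* channel of the same spots the signal was 66, 71 and 71, against a background of 16, 13 and 17. The *WT* signal was thus well above background on 3 of 3 arrays and the *Mut* signal on 0 of 3. After normalization the log2 level was 8.13, 7.75 and 7.88 in *WT* and 6.72, 6.79 and 6.63 in *Mut*, and the groups did not overlap. The log2 *Mut*/*WT* was -1.41, -0.96 and -1.26, a mean of -1.21 (limma, SE 0.075, adjusted P = 1.43e-06). Because *Mut* gave no signal well above background, only a bound can be given, and the *WT* mean was at least 2.31-fold the *Mut* mean in these normalized values. It equals the fitted fold (95% confidence interval 2.06 to 2.59) and covers neither that interval nor the other settings, of which the dye term described later gave a smaller fold. In RNA of sorted cells, fewer cells of a type and less RNA per cell cannot be told apart. Among the 599 probes called lower, 49 fell at least as far, *Gpc2* itself included.

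The control array gave a different picture of *Gpc2*. *WT* pool 1, whose Cy5 signal was 312 on array 1, had a Cy5 signal of 84 with a background of 51 on the control array, a raw ratio of 3.71. *WT* pool 2 in Cy3 had a signal of 67.5 with a background of 15, close to the 66 to 71 of the *Mut* pools in the same dye. On that array the Cy5 signal was well above background and the Cy3 signal was not. In normalized log2 levels, *WT* pool 1 was at 6.51 and *WT* pool 2 at 6.28 on that array. Both lay below all 3 *Mut* pools. From array 1 to that array, *WT* pool 1 fell by 1.62 on the log2 scale. It was the only member that moved by more than 1.5-fold between these measurements of the same pool, beside 0.967% of all probes, and the other 13 members moved by -0.45 to 0.03. Over all probes, 14 fell at least as far as *Gpc2*, itself included. Of the 599 probes called lower in *Mut*, 167 had *WT* pool 1 on the control array nearer to the *Mut* mean than to the *WT* mean, and *Gpc2* was one of them. Compared in the same dye, the mean of the *Mut* pools was 0.43 above *WT* pool 2 on the log2 scale, the highest of the 14 members, whose range was -0.14 to 0.43. None of them passed 1.5-fold in that comparison, beside 0.408% of all probes. High *Gpc2* signal was therefore seen in the Cy5 channels of arrays 1 to 3 and in neither channel of the control array.

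**Figure D2:**
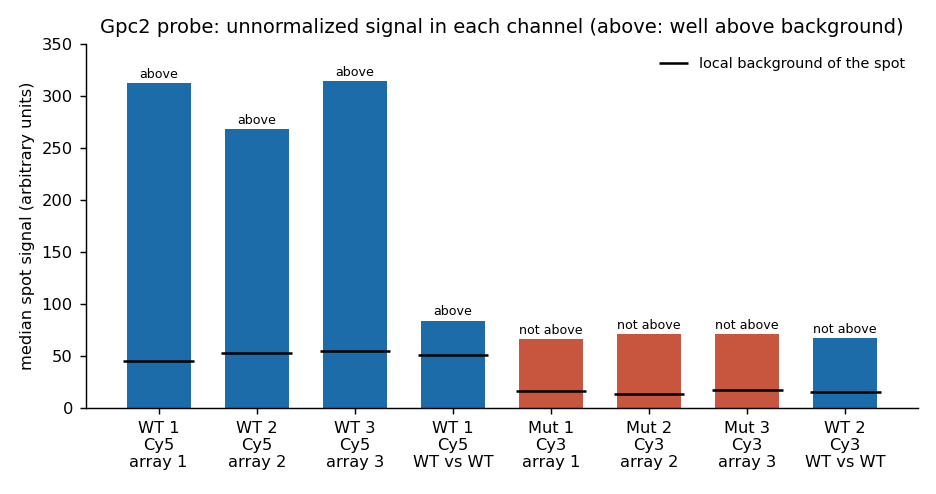
Median signal of the *Gpc2* spot and its local background (vertical axis, linear scanner units) in each of the 8 channels, by array and dye. The 3 *WT* channels of arrays 1 to 3 reach 268 to 314, whereas the 3 *Mut* channels and both *WT* channels of the control array lie between 66 and 84.

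The authors also deposited log ratios made from background-subtracted signals. For *Gpc2* these came to a log2 Cy3/Cy5 of -3.37, -2.73 and -3.29 on arrays 1, 2 and 3 and to -2.57 on the control array, where the mutation is in neither channel. The latter is a ratio of 5.95 between *WT* pools 1 and 2. With normexp and loess the control array ratio was -0.23, and with an offset of 0 in normexp it was -0.64. When the control array was used to fit a dye effect per probe (the dye term), the log2 *Mut*/*WT* of *Gpc2* was -0.98 (limma, SE 0.150, adjusted P = 0.0106). This term rests on 1 array of *WT* pools 1 and 2, so it cannot separate dye from pool. *Gpc2* signal was low in both channels there, so a dye effect at the higher Cy5 signal of arrays 1 to 3 was not measured. In the fit with the dye term, *Gpc2* was the only member past an adjusted P under 0.05. The share of all probes at that threshold alone is not given for this fit. *Gpc2* also passed both thresholds in it, beside 0.785% of all probes. The other members were at -0.47 to 0.15, with adjusted P values of 0.128 or more. The fold of *Gpc2* was removed as a call by an offset of 0 in the background correction, with -2.06 (adjusted P = 0.111, limma), and by median centring of the arrays without loess, with -1.49 (adjusted P = 0.0788, limma).

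The probes whose level over the 8 channels was most like that of *Gpc2*, among 15089 named probes well above background in *WT* (in Cy5 on arrays 1 to 3 or in both channels of the control array), were those of *Syne3* (Pearson r = 0.9959), *Spats2l* (0.9943), *Fbxl19* (0.9935), *Stk32a* (0.9929) and *Cldnd1* (0.9923). The channels share arrays and dyes and these probes were picked for likeness, so the coefficients are a description. *Fbxl19* fell from 8.59, 8.26 and 8.49 in *WT* to 7.40, 7.41 and 7.44 in *Mut* (log2 *Mut*/*WT* -1.03, adjusted P = 1.67e-06, limma). Its level in *WT* pool 1 and *WT* pool 2 on the control array was 7.27 and 7.17. At all 5 of these probes, *WT* pool 1 on the control array lay between 0.59 and 1.17 (log2) below the mean of the 3 *WT* channels of arrays 1 to 3, as it lay 1.41 below at *Gpc2*. The control array channels entered the choice of these probes, so this shared fall follows from the choice.

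**Figure D3:**
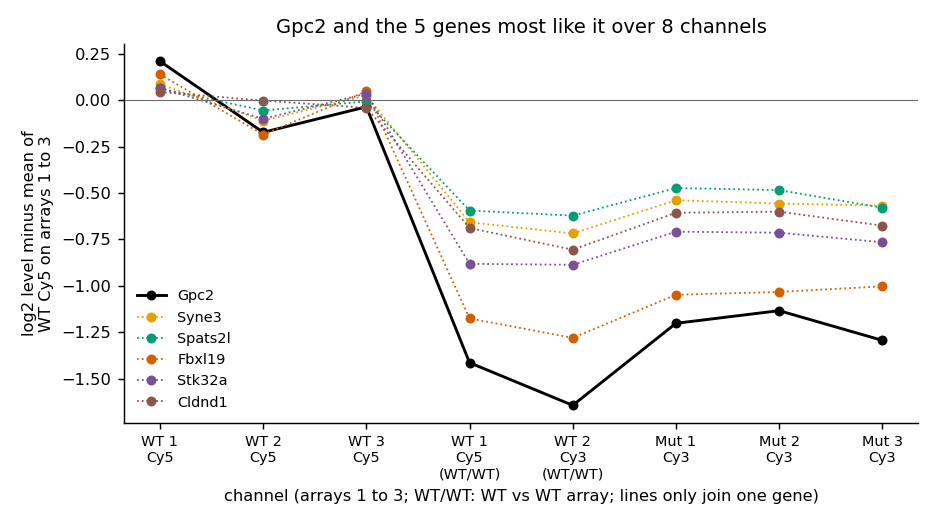
Normalized log2 level of *Gpc2* and of the 5 probes most like it, as the difference from the mean of the 3 *WT* channels on arrays 1 to 3 (vertical axis), in the 8 channels (horizontal axis). Each probe is high in the 3 *WT* channels of arrays 1 to 3 and lower in the other 5 channels, both *WT* channels of the control array included. The 5 probes were picked over these same 8 channels, so their likeness follows from the choice.

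The other glypicans differed little. *Gpc3*, the X-linked glypican that restrains growth, was well above background in both channels on all arrays and had a log2 *Mut*/*WT* of 0.12, -0.03 and -0.20 on arrays 1, 2 and 3. The mean of -0.04 (limma, SE 0.063, adjusted P = 0.705) was smaller than its SD of 0.16 between arrays (n = 3), and the control array ratio was -0.11. *Gpc4*, its direct neighbour in the gene order of the GRCm38.p6 assembly with 0 protein-coding genes between them, had values of 0.01, 0.12 and -0.06 and a mean of 0.02 (limma, SE 0.055, adjusted P = 0.781). *Gpc1*, a broadly expressed glypican, was at 0.03, -0.15 and -0.07, with a mean of -0.06 (limma, SE 0.055, adjusted P = 0.423) and a control array ratio of -0.07. The arrays did not share a direction for any of these 3 genes. *Gpc5* did not rise well above background in any of the 8 channels, so no fold is given for it.

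*Gpc6*, which lies next to *Gpc5* with 0 protein-coding genes between them, was lower in *Mut* at both probes. The dimmer probe had a log2 level of 7.60, 7.53 and 7.57 in *WT* and of 7.13, 7.23 and 7.41 in *Mut*. These groups did not overlap, and the log2 *Mut*/*WT* of -0.47, -0.30 and -0.16 had a mean of -0.31 (limma, SE 0.063, adjusted P = 0.00318). Its control array ratio was -0.04, but both *WT* pools on that array, at 7.34 and 7.30, lay within the range of the *Mut* pools. The brighter probe was at -0.41, -0.07 and -0.12, a mean of -0.20 (limma, SE 0.067, adjusted P = 0.0438), and its levels overlapped between the groups. *Mut* pool 1 stood apart there, with 8.11 against 8.53 and 8.52 in *Mut* pools 2 and 3, and without array 1 the mean was -0.09. On the control array this probe had a log2 Cy3/Cy5 of 0.27. Neither probe reached 1.5-fold.

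Among the syndecans no probe passed both thresholds. *Sdc1*, the syndecan typical of epithelia that also appears in the condensing kidney mesenchyme, had a log2 level of 9.57, 9.50 and 9.49 in *WT* and of 9.22, 9.21 and 9.31 in *Mut*. All *Mut* pools lay below all *WT* pools of arrays 1 to 3, with a log2 *Mut*/*WT* of -0.35, -0.29 and -0.18 and a mean of -0.27 (limma, SE 0.055, adjusted P = 0.0029). The control array gave -0.18 in the same orientation of dyes, with *WT* pool 2 in Cy3 at 9.31 and *WT* pool 1 in Cy5 at 9.49. The level of *WT* pool 2 in Cy3 was thus within the range of the *Mut* pools in that dye.

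The probes of *Sdc2*, the syndecan of mesenchymal cells, moved in opposite directions. The brighter probe rose from 9.10 in each of the 3 *WT* pools to 9.37, 9.41 and 9.18 in *Mut*, with ratios of 0.26, 0.31 and 0.08 and a mean of 0.22 (limma, SE 0.058, adjusted P = 0.0158). It was the 1 member higher in *Mut* at an adjusted P under 0.05, and it stayed under 1.5-fold. The dimmer probe fell from 8.12, 7.93 and 7.92 in *WT* to 7.74, 7.69 and 7.79 in *Mut*, with ratios of -0.38, -0.24 and -0.13 and a mean of -0.25 (limma, SE 0.059, adjusted P = 0.00824). The groups overlapped at neither probe on arrays 1 to 3. On the control array, *WT* pools 1 and 2 were at 9.06 and 9.13 at the brighter probe (log2 Cy3/Cy5 0.07). At the dimmer probe they were at 7.67 and 7.84 (log2 Cy3/Cy5 0.17). There *WT* pool 1 lay below all 3 *Mut* pools, and 0.45 below its own level on array 1. The ratio of the brighter exceeded that of the dimmer probe by 0.64, 0.54 and 0.21 on arrays 1, 2 and 3, while on the control array the difference was -0.10. Which parts of the transcript the probes bind was not determined, and no direction is given for the gene. The direction of the brighter probe turned with median centring, to -0.33, where its control array ratio was -0.41.

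*Sdc3*, known mainly from nerve and muscle, had a brighter probe with ratios of -0.07, 0.01 and 0.05 and a mean of -0.0023 (limma, SE 0.053, adjusted P = 0.980). Its dimmer probe was at -0.11, -0.13 and -0.21, a mean of -0.15 (limma, SE 0.052, adjusted P = 0.0488), near background, with the *Mut* channel well above it on 2 of 3 arrays. *Sdc4*, the syndecan of focal adhesions, had means of 0.03 at the brighter probe (limma, SE 0.051, adjusted P = 0.691) and of 0.05 at the dimmer probe (limma, SE 0.057, adjusted P = 0.575). At the brighter probe the 3 arrays gave 0.02, 0.05 and 0.02, and the control array 0.06.

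Over both families, the *Mut* and *WT* levels of arrays 1 to 3 did not overlap at 6 of 14 probes (42.9%), beside 38.0% of all probes. These were *Gpc2*, *Sdc1*, both *Sdc2* probes and the dimmer probes of *Gpc6* and *Sdc3*. At 8 of 14 probes the 3 arrays gave the same direction. The mean *Mut*/*WT* ratio was larger in size than the control array ratio at 6 of 14. The share of all probes was not determined for these last counts, so they are not read as a trait of the members. Over all probes, the log ratios of arrays 1 to 3 correlated at 0.72 to 0.85 (Pearson). Across all 8 channels, the level of *Gpc2* spanned 1.85 on the log2 scale and that of any other member between 0.08 and 0.54.

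**Figure D4:**
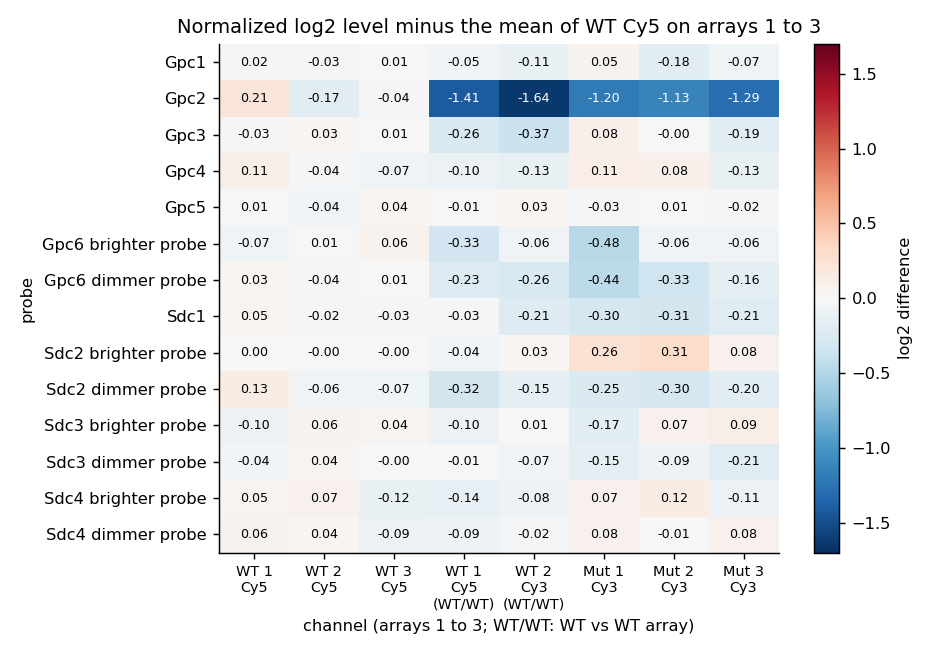
Normalized log2 level of each of the 14 probes (rows) in the 8 channels (columns), given as its difference from the mean of the 3 *WT* channels on arrays 1 to 3. *Gpc2* is between -1.64 and -1.13 in 5 channels, those of *Mut* and both of the control array, and no other member is beyond -0.48 or 0.31 in any channel.

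The genes that build, modify and release the heparan sulphate chains showed small differences. Of 53 genes listed for these steps, 44 had a probe, with the brightest probe standing for a gene that has several. None was differentially expressed at both thresholds, and 15 (34.1%) passed the adjusted P alone, 5 higher and 10 lower, beside 29.6% of all probes. Their median log2 *Mut*/*WT* was -0.01. The 5 genes that polymerise the chain included none that passed. *Ext1* and *Ext2*, the chain polymerases, were at -0.16 (adjusted P = 0.0607, limma) and -0.12 (adjusted P = 0.0915, limma), and *Extl3*, which adds the first sugar of the repeating chain, was at 0.12 (adjusted P = 0.131, limma) and at -0.12 at its dimmer probe.

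Of the 10 genes measured for precursors and the linkage to the core protein, 2 passed the adjusted P as higher and 2 as lower, beside 13.2% and 16.4% of all probes. None of the genes counted in this and the 3 steps that follow reached 1.5-fold. *Ugdh*, which makes UDP-glucuronic acid, was higher by 0.27 (limma, SE 0.063, adjusted P = 0.00737), with a control array ratio of 0.30. *Xylt2*, which places the first xylose on the core protein, was at -0.21 (adjusted P = 0.0132, limma) and at -0.34 at its other probe, and *Papss1*, which makes the sulphate donor PAPS, at 0.23 (adjusted P = 0.0312, limma). The control array ratio was -0.18 at the brighter *Xylt2* probe and 0.14 at *Papss1*. Of 12 genes of sulphation and epimerisation, 1 passed the adjusted P as higher and 2 as lower, against the same shares of all probes. *Hs2st1*, which sulphates uronic acid, had -0.50, -0.24 and -0.30 on arrays 1, 2 and 3, a mean of -0.35 (limma, SE 0.060, adjusted P = 0.00125) with a control array ratio of 0.11. Its other probe was at 0.02 (adjusted P = 0.784, limma). *Hs6st1*, a sulphotransferase of glucosamine, was at 0.28, 0.18 and 0.29, a mean of 0.25 (limma, SE 0.052, adjusted P = 0.00381) with a control array ratio of 0.22. On that array *WT* pool 1 differed from the mean of the 3 *WT* channels of arrays 1 to 3. This difference was -0.28 at the brighter *Hs2st1* probe and 0.12 at *Hs6st1*. *Hs6st3*, counted as lower (adjusted P = 0.0181, limma), did not rise well above background in either dye, so no fold is given.

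Of the 8 measured genes that trim or degrade the chains, 1 passed the adjusted P as higher and 4 as lower, beside 13.2% and 16.4% of all probes. *Naglu*, the lysosomal enzyme that removes N-acetylglucosamine from the chain end, was at -0.54, -0.35 and -0.42 on arrays 1, 2 and 3, a mean of -0.44 (limma, SE 0.056, adjusted P = 0.00017), against -0.14 on the control array. *WT* pool 1 on that array lay 0.11 below the mean of the 3 *WT* channels of arrays 1 to 3. *Idua*, the lysosomal iduronidase, is counted as lower (adjusted P = 0.0122, limma), but its *Mut* channel was well above background on 0 of 3 arrays and its fitted -0.21 is a value near background, with -0.24 on the control array. *Ids*, the lysosomal iduronate sulphatase, was at -0.18 (adjusted P = 0.0258, limma), against -0.08 there, and its further probes were not well above background in *Mut*. The extracellular sulphatases, which remove sulphate from chains at the cell surface, differed in direction, with *Sulf1* at -0.18 (adjusted P = 0.0277, limma) and *Sulf2* at 0.17 (adjusted P = 0.0465, limma). Their control array ratios were -0.12 and 0.22. On that array *WT* pool 1 differed from the mean of the 3 *WT* channels of arrays 1 to 3 by -0.21 at *Sulf1* and -0.44 at *Sulf2*.

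Of 9 genes measured for release of the core proteins from the membrane, 1 passed the adjusted P as higher and 2 as lower, against the same shares of all probes. *Furin*, the convertase that cleaves glypicans such as *Gpc3* and activates sheddases, was higher by 0.49 (limma, SE 0.051, adjusted P = 4.2e-05), but the control array ratio of its probe was 0.41. *Adam10*, a membrane protease that sheds ectodomains, was at -0.37, -0.56 and -0.43, a mean of -0.45 (limma, SE 0.056, adjusted P = 0.000137), against -0.17 on the control array. *WT* pool 1 on that array lay 0.08 below the mean of the 3 *WT* channels of arrays 1 to 3. *Gpld1*, a phospholipase that cuts GPI anchors, is counted as lower (adjusted P = 0.00467, limma) but did not rise well above background in either dye, so no fold is given. *Notum*, a lipase first known for acting on glypicans in the fly, was at 0.09.

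**Figure D5:**
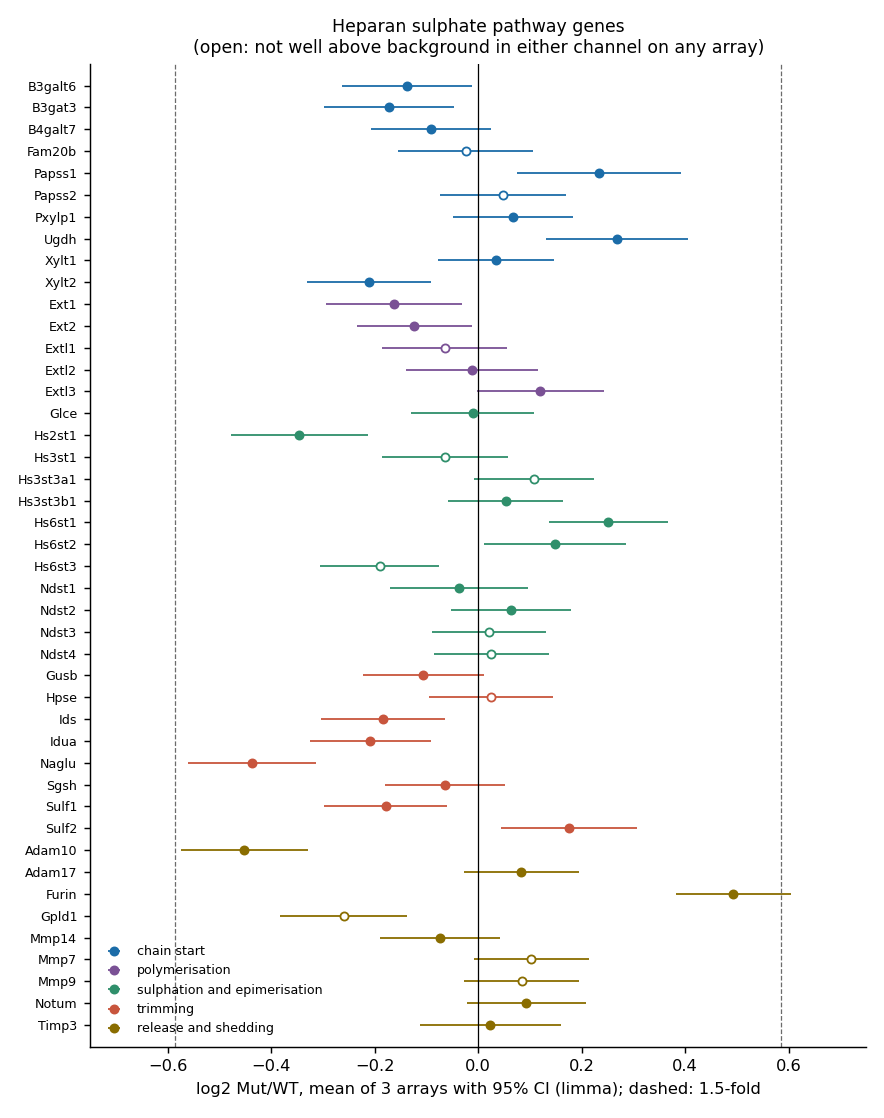
Mean log2 *Mut*/*WT* of arrays 1 to 3 with its 95% confidence interval (limma, horizontal axis) for the 44 measured genes of the heparan sulphate pathway (vertical axis), coloured by step, with open symbols for genes not well above background. All means lie inside the dashed lines at 1.5-fold, with *Furin* at 0.49 and *Adam10* at -0.45 farthest out.

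Among 13 other measured proteoglycan genes, 5 (38.5%) passed the adjusted P, 3 higher and 2 lower, beside 29.6% of all probes, and none passed both thresholds. *Dcn*, the matrix proteoglycan decorin and one of the 8 stroma markers above, was at 0.37 (limma, SE 0.056, adjusted P = 0.000536). *Cspg4* (NG2), a proteoglycan of pericytes, was at 0.33 (limma, SE 0.052, adjusted P = 0.000631). *Nrp1*, a co-receptor that can carry a glycosaminoglycan chain, was at -0.32 (limma, SE 0.057, adjusted P = 0.00159) and at -0.55 at its other probe. Their control array ratios were 0.10, 0.06 and 0.04. However, *WT* pool 1 itself differed there from the mean of the 3 *WT* channels of arrays 1 to 3. These differences were 0.30, 0.27 and -0.31 (log2), near the *Mut*/*WT* values.

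Of 13 measured partners of syndecans, 7 (53.8%) passed the adjusted P, 4 higher and 3 lower, beside 29.6% of all probes, and none passed both thresholds. *Cask*, an adaptor that binds the syndecan tail, was at -0.57 (limma, SE 0.051, adjusted P = 1.66e-05) at its brightest probe, with -0.09 on the control array, but its further probes were at -0.31 (adjusted P = 0.00258, limma) and 0.03 (adjusted P = 0.715, limma). *Tnc*, a matrix ligand of syndecans, was at 0.40 (limma, SE 0.058, adjusted P = 0.000346), with 0.39 on the control array. Its other probe, also well above background, was at -0.42 (adjusted P = 0.000287, limma), so no direction is given for the gene. *Actn4*, which links to *Sdc4* at focal adhesions, was at 0.30 (limma, SE 0.051, adjusted P = 0.00103), with 0.21 on the control array. At the brightest *Cask* probe, *WT* pool 1 on that array lay 0.46 below the mean of the 3 *WT* channels of arrays 1 to 3. The same difference was -0.02 at the brighter *Tnc* probe and 0.03 at *Actn4*.

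All 27 genes listed as ligands of heparan sulphate had a probe. Whether each of them binds the chains was not examined here. Of the 27 genes, 6 (22.2%) passed the adjusted P, 4 higher and 2 lower, beside 29.6% of all probes, and none was differentially expressed at its brightest probe. *Fgf8*, a growth factor of the early nephron, was at 0.40 (limma, SE 0.056, adjusted P = 0.000296), with 0.06 on the control array. *Bmp4* was at -0.30 (limma, SE 0.053, adjusted P = 0.00122), with -0.14 there, and the chemokine *Cxcl12* at 0.26 (limma, SE 0.052, adjusted P = 0.00311), with 0.19 there. The other probe of *Cxcl12* was at -0.10 (adjusted P = 0.148, limma). At *Fgf8*, *WT* pool 1 on the control array lay 0.32 above the mean of the 3 *WT* channels of arrays 1 to 3. The same difference was -0.09 at *Bmp4* and -0.04 at the brighter *Cxcl12* probe. A dimmer probe of the growth factor *Vegfa* was called lower, at -0.80 (adjusted P = 1.1e-05, limma), while its brightest probe was at -0.04 (adjusted P = 0.610, limma).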

How the data were processed

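RNA of pooled, FACS-sorted NPCs was hybridized to 4 dual-colour Agilent arrays on 1 slide, and pools and dyes were taken per the labels. Per the file headers the spots were quantified with Agilent Feature Extraction (version 10.7.3.1). The authors deposited its unnormalized intensity per spot and channel together with the background around the spot. They also deposited a log10 ratio (Cy5 to Cy3), from which background and dye bias had been removed by the same program, and repeated it in a series table. The GeneSpring values of the study were not used here.

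Median intensities were corrected with normexp (offset 50), normalized by loess within arrays, and control and outlier spots (122 to 162 per array) were left out. Spots of a probe were averaged. Median signals were 65.5 to 82 in Cy3 and 84 to 92 in Cy5, against backgrounds of 16 or 17 and 50, and 45.1 to 58.4% of probes were well above background. The small number of arrays limits the precision. No member spot was saturated. Ratios were tested against 0 with limma 3.58.1 in R 4.3.3 (lmFit, eBayes, Benjamini-Hochberg), which was first tested on simulated data, and levels per channel were scaled with Aquantile. Each array pairs pools of the same number, and the deviations of paired pools from their group means correlated over probes at 0.388, 0.431 and 0.320. Names came from a GRCm38.p6 gene table that matched 22944 of 41174 probes. The members and lists were chosen with earlier results of these data known, and *Gpc2* is among the genes that the study itself singled out from these arrays. All member probes were reported, and from each list the genes called, up to 3 with the lowest adjusted P and the brightest of each chain step. The results of 2 listed genes are not reported here. No sequences of the probes or genes were used here. Alternatives covered the deposited log ratios, offset, centring, outlier and dim spots, a dye term, the pairing, the methods' t-test, the fold minimum, and leaving out each array. Comparisons of pools between arrays were added after seeing the data.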

Additional observations from a re-analysis of the deposited data

How the results depend on the processing

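The call of *Gpc2* remained with the deposited log ratios (log2 *Mut*/*WT* -3.13), with outlier spots kept, with dim probes left out, with the dye term (-0.98), without the replicate block that pairs the pools of an array (-1.21) and with each array left out in turn (-1.33 to -1.11). The dye term cannot separate dye from pool, since it rests on 1 array of *WT* pools 1 and 2. The call of *Gpc2* was lost with an offset of 0 (-2.06) and with median centring (-1.49). Its direction turned where *Mut* pool 1 was set against *WT* pool 1 (0.21) and *Mut* pool 2 against *WT* pool 2 (0.51) as measured on the control array. The count of members called, 1, became 0 with an offset of 0, with median centring and with the methods' t-test after adjustment, and 7 without the fold minimum. Over all probes the 827 calls became 2705 with the deposited log ratios (1489 higher and 1216 lower), 323 with the dye term (146 and 177), 12186 without the fold minimum and 0 with an offset of 0, with median centring and with the adjusted t-test, and 606 to 1206 with 1 array left out. Without the replicate block 824 probes and 1 member were called. At an unadjusted P under 0.05 and over 1.5-fold, the methods' t-test gave 693 probes and 1 member, limma with an offset of 0 gave 3523 and 1, and limma with median centring 6023 and 7. The heparan sulphate pathway went from 0 calls to 5 with the deposited log ratios and 15 without the fold minimum, the other proteoglycans to 5 without the fold minimum, and the ligands to 1 and 6. Apart from the comparisons with pools on the control array, the other members whose direction turned had means between -0.06 and 0.05 in the report, except the brighter probe of *Sdc2* (0.22). With median centring *Gpc4* was at -0.39, *Gpc5* at 0.13, the brighter probes of *Sdc2* and *Sdc4* at -0.33 and -0.45 and the dimmer probe of *Sdc4* at -0.0053. In that setting the control array ratios of these probes were, in the same order, -0.36, 0.21, -0.41, -0.35 and 0.080. With the deposited log ratios *Gpc5* was at 0.17, the brighter *Sdc3* probe at 0.016 (0.033 with an offset of 0) and the dimmer *Sdc4* probe at -0.033. With the dye term *Gpc1* was at 0.0047, *Gpc3* at 0.073 and the brighter and dimmer *Sdc4* probes at -0.029 and -0.016. With 1 array left out, *Gpc3* ranged from -0.11 to 0.044, *Gpc4* from -0.025 to 0.065, *Gpc5* from -0.047 to 0.0043, the brighter *Sdc3* probe from -0.030 to 0.033 and the dimmer *Sdc4* probe from -0.015 to 0.096. The causes were not tested. Of 129 values of members other than *Gpc2*, 18 turned direction. In the same comparisons with pools on the control array, which have no test, 6 of 26 values of the other members turned as well, those of *Gpc3* (0.35 and 0.37), *Gpc1* (0.10), the dimmer *Sdc2* probe (0.073) and the brighter *Gpc6* and *Sdc3* probes (0.0013 and 0.064).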
